A study of Mus musculus with 7 samples.

Results

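Myeloid cells of the spleen and of the blood were compared in tumor-bearing mice, as all cells counted in the tumor-bearing spleen library against all cells counted in the tumor-bearing blood library, and again within the authors' clusters 0, 1, 2, 4 and 6. The comparison held 933 cells, 579 from spleen and 354 from blood, of the 4290 cells counted in the series. The study profiled myeloid cells of C57/Bl6 mice enriched for CD11b, an integrin chain of neutrophils, monocytes and macrophages, by sequencing RNA and oligo-tagged surface antibodies in the same cells. The tumor-bearing groups were spleen and blood of mice carrying LLC, a transplantable Lewis lung carcinoma line, at day 14. The naive groups, set beside them here, were spleen (416 cells) and blood (814 cells) of mice of the same strain without a tumor. Each tissue and state was 1 library, and the labels gave neither the number of animals behind a library nor whether a spleen and a blood library shared an animal. No difference below therefore has a replicate check or a p-value, and a difference between tissues cannot be told apart from one between 2 libraries.

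Monocytes leave the bone marrow for the blood as classical cells marked by Ly6C and CCR2, and part of them convert to non-classical cells that patrol vessel walls. The spleen holds a store of undifferentiated monocytes beside its resident red pulp macrophages, which clear aged red cells and recycle their iron. Immediate early genes such as Fos and Jun are transcribed within minutes of a stimulus, and their RNAs are short-lived.

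Summed unique molecular identifiers (UMIs, counted molecules) came to 5752217 in tumor-bearing spleen and 4523693 in tumor-bearing blood, with medians of 9827 and 12445 UMIs per cell. Median mitochondrial shares were 3.30% and 3.25%. No cell barcode was shared by the 2 libraries. All 12 monocyte markers examined were measured, among them Lyz2 at 10610 UMIs per 1000000 (CPM) in spleen and 12133 CPM in blood and the CD11b gene Itgam at 293 CPM in spleen and 267 CPM in blood. Clusters 0, 1, 2, 4 and 6 held 109, 165, 128, 75 and 72 cells of spleen and 97, 73, 57, 64 and 38 cells of blood. Ly6c2, which marks classical monocytes, was highest in cluster 2 of spleen at 2291 CPM and lowest in cluster 4 at 459 CPM, where the non-classical monocyte gene Ace was highest at 793 CPM. The clusters were compared by number, since their cell type was not rebuilt here.

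The 2 tissues were close to each other. Genes counted as measured where spleen and blood summed to 30 UMIs or more and 1 of them reached 20 CPM, which left 5421 genes. Of these, 12 were at least 2-fold higher in tumor-bearing spleen (0.221%) and 10 at least 2-fold lower (0.184%). At 1.5-fold the counts were 170 higher (3.14%) and 58 lower (1.07%). The naive spleen and naive blood libraries, which share no library with the tumor-bearing ones, gave 8 genes at least 2-fold higher (0.149%) and 7 lower (0.13%) among 5367 measured. For each gene the 1 cell that held most of its UMIs, over both libraries, was then left out. After that, 7 of the 12 higher and 6 of the 10 lower genes stayed past the minimums and 2-fold.

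**Figure D1:**
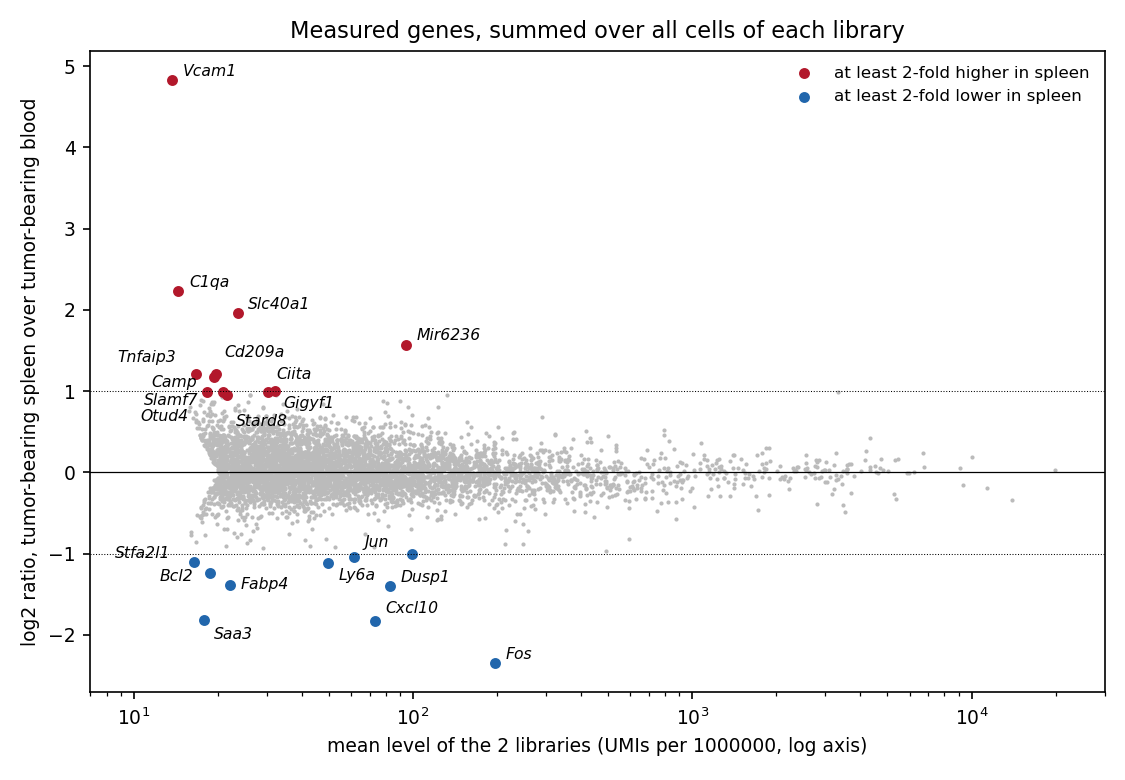
Each point is 1 of 5421 measured genes, placed by its mean level in tumor-bearing spleen and tumor-bearing blood (CPM, log axis) and its log2 ratio of spleen over blood with a pseudo-count of 1 CPM. The dotted lines mark a log2 ratio of 1 and -1. The red points are the 12 genes at least 2-fold higher in spleen, led by Vcam1, and the blue points the 10 at least 2-fold lower, led by Fos.

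The lower side was led by immediate early genes. Of 30 such genes 19 were measured, 18 of them had a log2 ratio below 0 in tumor-bearing spleen against tumor-bearing blood, 11 were at least 1.5-fold lower (1.07% of all measured genes were) and 3 at least 2-fold lower (0.184% of all). Their median log2 ratio was -0.71, against 0.02 over all measured genes, and their summed level was 3642 CPM in spleen and 5516 CPM in blood. The 3 genes past 2-fold were Fos and Jun, subunits of the transcription factor AP-1, and Dusp1, a phosphatase that switches off stress-activated kinases. Because 2 of them carry a cyclic AMP response element in their promoter in textbook accounts, the promoter windows of Fos, Dusp1 and another member, Atf3, are shown, with that of Tnfaip3, an NF-kB target described further on. Each runs 5′ to 3′ from 250 bases before to 50 after the RefSeq start on GRCm38.p6. Capitals mark TGACGT on either strand in the first 3 windows and GGAANNNCC, an NF-kB-like pattern, on either strand in the window of Tnfaip3.
Fos, chr12:85473640-85473939, plus strand: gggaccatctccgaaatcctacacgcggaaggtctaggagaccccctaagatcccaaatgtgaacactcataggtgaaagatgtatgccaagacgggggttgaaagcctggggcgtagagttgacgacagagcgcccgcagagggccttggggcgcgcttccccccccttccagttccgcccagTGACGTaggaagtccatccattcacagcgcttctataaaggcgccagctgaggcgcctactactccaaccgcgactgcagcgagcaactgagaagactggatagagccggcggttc
Dusp1, chr17:26508423-26508722, minus strand: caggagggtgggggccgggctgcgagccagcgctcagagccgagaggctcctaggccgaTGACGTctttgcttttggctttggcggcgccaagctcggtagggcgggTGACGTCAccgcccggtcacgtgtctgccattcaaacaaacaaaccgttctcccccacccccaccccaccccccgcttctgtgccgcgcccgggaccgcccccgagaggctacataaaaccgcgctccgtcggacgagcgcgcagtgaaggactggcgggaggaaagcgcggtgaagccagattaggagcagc
Atf3, chr1:191183284-191183583, minus strand: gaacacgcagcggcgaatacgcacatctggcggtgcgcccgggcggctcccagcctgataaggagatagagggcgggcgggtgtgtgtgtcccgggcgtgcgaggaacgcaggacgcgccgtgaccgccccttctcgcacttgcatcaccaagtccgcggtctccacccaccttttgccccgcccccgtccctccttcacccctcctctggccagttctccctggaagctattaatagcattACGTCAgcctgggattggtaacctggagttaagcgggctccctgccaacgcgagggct
Tnfaip3, chr10:19015361-19015660, minus strand: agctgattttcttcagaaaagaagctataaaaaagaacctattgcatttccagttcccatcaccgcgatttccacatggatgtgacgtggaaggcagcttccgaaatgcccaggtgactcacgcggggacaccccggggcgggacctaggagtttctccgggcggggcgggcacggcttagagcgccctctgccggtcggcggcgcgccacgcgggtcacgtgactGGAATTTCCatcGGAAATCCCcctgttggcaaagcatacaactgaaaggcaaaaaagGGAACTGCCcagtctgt

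Counted from the start as position 0, TGACGT or its complement began at -66 in Fos, at -191, -143 and -141 in Dusp1, where the last 2 matches overlap, and at -8 in Atf3. It was present in the promoters of 6 of the 18 measured immediate early genes with a promoter in the table (33.3%) and in 7.51% of all 32851 promoter windows of this length. The 6 genes were Fos, Dusp1, Atf3, Btg1, Btg2 and Ppp1r15a. Jun, also past 2-fold, was not among them, nor were Junb, Zfp36, Ier2 and Klf4. TGACGT was also in 3 of the 22 windows of measured NF-kB feedback and survival genes (13.6%). That of Tnfaip3 was included, where it began at -168 and is left in lower case. In Tnfaip3 GGAANNNCC began at -24, -12 and 33, and it occurred in 18.5% of all windows. It was in 14 of the 22 windows of measured NF-kB feedback and survival genes (63.6%) and in 3 of the 18 of measured immediate early genes (16.7%). These matches describe letters in a window and say nothing of binding.

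Fos had 369 UMIs in tumor-bearing spleen and 1496 in tumor-bearing blood, or 64.1 and 331 CPM. That is 0.194-fold, with an exact 95% interval of 0.173 to 0.218 that covers counting error only. The naive libraries had the same order with a narrower gap, 143 CPM in naive spleen and 243 CPM in naive blood. Blood was thus the higher tissue in each pair, and the tumor-bearing spleen was the lowest of the 4 libraries. Within clusters Fos stood at 25 to 133 CPM in spleen and 105 to 518 CPM in blood, with log2 ratios from -1.67 in cluster 4 to -3.18 in cluster 6. No single cell carried it: the top cell held 14 of the spleen UMIs and 37 of the blood UMIs.

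Dusp1 had 45 CPM in tumor-bearing spleen and 120 CPM in tumor-bearing blood (0.374-fold, 0.322 to 0.435), against 50.4 and 82.8 CPM in naive spleen and naive blood. It was at least 2-fold lower in spleen in each of the 5 clusters. Jun stood at 39.8 CPM in tumor-bearing spleen and 83.1 CPM in tumor-bearing blood (0.479-fold, 0.405 to 0.566), and at 66.7 and 77.3 CPM in naive spleen and naive blood. Its difference in the naive pair was thus small, and 3 of the 5 clusters of the tumor-bearing pair passed 2-fold. Junb, a further AP-1 subunit, stood just inside 2-fold at 330 CPM in spleen and 649 CPM in blood. Zfp36, which binds cytokine mRNAs and speeds their decay, had 150 CPM in spleen and 276 CPM in blood, and Ier2 had 174 and 321 CPM. Atf3, a stress-induced repressor, had 34.9 CPM in spleen and 62.6 CPM in blood, and Klf4, a monocyte transcription factor, 163 and 267 CPM. These 5 genes were lower in naive spleen than in naive blood too. The members closest to equal were Nr4a1, needed for non-classical monocytes, at 207 CPM in spleen and 224 CPM in blood, and Zfp36l1 at 27.8 and 29.0 CPM. Only Fosl2 among the measured members was above 0, at 63.3 CPM in spleen and 52.6 CPM in blood.

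The list had a median below 0 in each cluster, from -0.41 in cluster 0 to -0.84 in cluster 2, with 15 to 17 of its 19 genes below 0. In the naive pair 16 of the 19 were below 0, with a median of -0.28, and 5 were at least 1.5-fold lower against 0.801% of all genes measured there. Heat shock and chaperone genes were the other list of rapidly induced genes. Of 12 measured members 1 passed 1.5-fold, and it was higher (3.14% of all measured genes were). It was Hspa1b, at 104 CPM in tumor-bearing spleen and 57.3 CPM in tumor-bearing blood. Its near-identical copy Hspa1a went the other way at 41.9 CPM in spleen and 60.3 CPM in blood, and the counting could have split reads between them. The labels do not record the time and handling between tissue and capture.

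**Figure D2:**
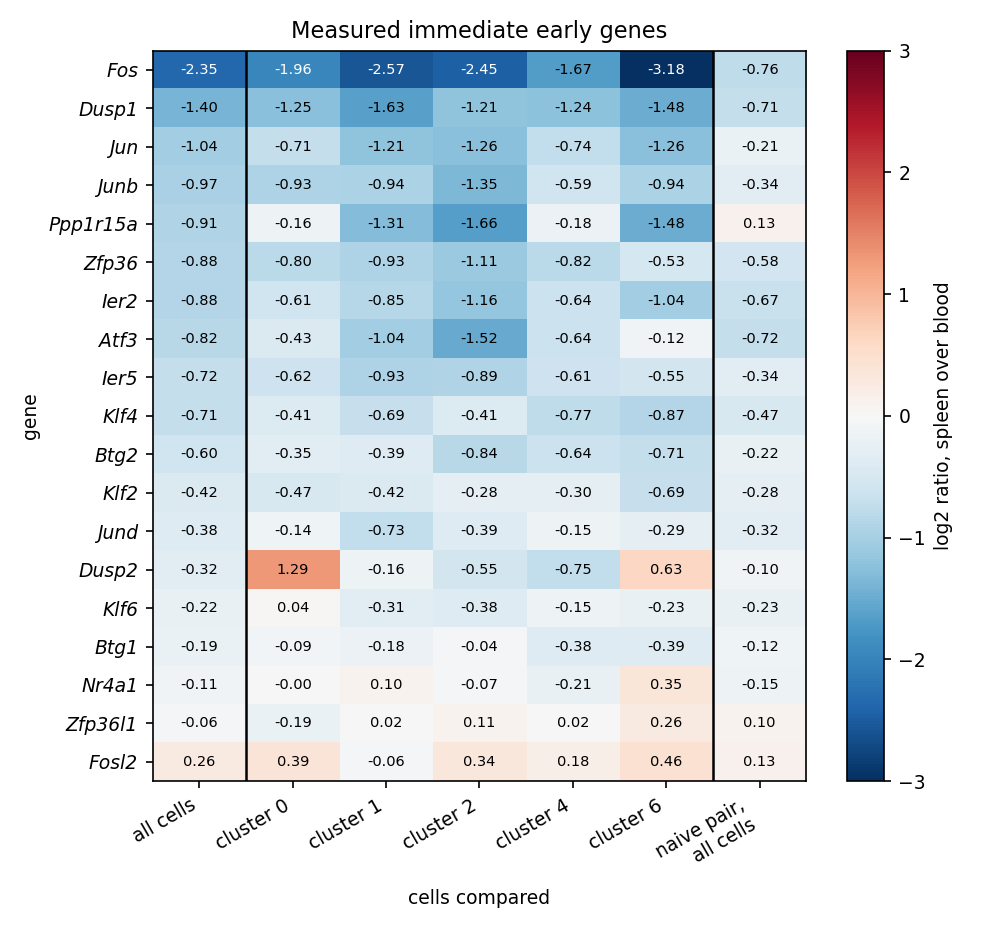
Rows are the 19 measured immediate early genes and columns are all cells, clusters 0, 1, 2, 4 and 6 of the tumor-bearing pair, and all cells of the naive pair. Each cell gives the log2 ratio of spleen over blood (blue below 0, red above 0). Fos is lowest in every column of the tumor-bearing pair, from -1.67 to -3.18, and -0.76 in the naive pair.

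Outside that list, Bcl2, which protects cells from apoptosis, had 10.8 CPM in tumor-bearing spleen and 26.7 CPM in tumor-bearing blood. The naive tissues had 14.0 and 26.9 CPM. Among the clusters Bcl2 was at least 2-fold lower only in cluster 4, at 26.5 CPM in spleen and 99.2 CPM in blood. In the other clusters its log2 ratio lay between -0.10 and -0.83. Socs3, a feedback inhibitor of cytokine receptors, was at least 2-fold lower in 3 clusters and had 49.9 CPM in spleen and 95.3 CPM in blood over all cells. Fabp4, a fatty acid carrier, had 11.8 CPM in spleen and 32.5 CPM in blood, and Ccr1, a receptor for inflammatory chemokines, 29.6 and 56.4 CPM. Each of these genes had a log2 ratio below 0 in the naive pair too. Without cells holding 3 or more UMIs of other cell types, Bcl2 and Fabp4 stood at -0.68 and -0.85, and their calls ended.

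Some lower genes rested on few cells. Cxcl10, an interferon-induced chemokine that draws T cells, had 31.6 CPM in tumor-bearing spleen and 115 CPM in tumor-bearing blood (0.275-fold, 0.231 to 0.326), and 26.9 and 102 CPM in naive spleen and naive blood. One blood cell of the tumor-bearing pair held 174 of its 520 UMIs there, and the ratio without that cell was 0.414. Within cluster 2, which held most of its spleen RNA, the levels were 109 CPM in spleen and 259 CPM in blood. Over clusters 0, 1, 2, 4 and 6 alone its log2 ratio was -0.63 and the call ended. Saa3, an acute-phase apolipoprotein, had 7.30 CPM in spleen and 28.3 CPM in blood, with 60 of 128 blood UMIs in 1 cell. Ly6a and Stfa2l1 also stood inside 2-fold without their top cells, at 0.562-fold and 0.563-fold.

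Some genes of red pulp macrophages were on the higher side, in small amounts, and the list was mixed. Of its 24 genes 12 were measured, 4 of them at least 1.5-fold higher in tumor-bearing spleen (3.14% of all measured genes were) and 2 at least 1.5-fold lower (1.07% of all), with a median log2 ratio of 0.28. In the naive pair none of 8 measured was at least 1.5-fold higher (1.36% of all genes measured there were) and the median was -0.10. Vcam1, an adhesion molecule of those macrophages, had 158 UMIs in tumor-bearing spleen and 0 in tumor-bearing blood, or 27.5 CPM and none. Set against the floor of 3 UMIs in the blood library, its fold was 41.4, a value that carries no interval for counting error. The naive pair had 4.97 CPM in naive spleen and 0 UMIs in naive blood, so it was listed in spleen libraries and in neither blood library. Slc40a1, the iron exporter ferroportin, had 38.1 CPM in tumor-bearing spleen and 9.06 CPM in tumor-bearing blood (4.20-fold, 3.0 to 6.02), and 12.9 and 4.6 CPM in naive spleen and naive blood. C1qa, a chain of complement C1q, had 24.5 CPM in tumor-bearing spleen and 4.42 CPM in tumor-bearing blood (5.54-fold, 3.46 to 9.35), but 2.04 CPM in naive spleen and 6.34 CPM in naive blood. The sister chain C1qb had 29.0 CPM in tumor-bearing spleen and 23.4 CPM in tumor-bearing blood, and 4.52 and 14.4 CPM in naive spleen and naive blood.

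These UMIs were concentrated, and a sum over cells cannot tell apart more cells of a type from more RNA per cell. In tumor-bearing spleen the 5 top cells held 92 of 158 UMIs of Vcam1, 112 of 219 of Slc40a1 and 108 of 141 of C1qa. The 12 tissue macrophage markers summed to 137 CPM in tumor-bearing spleen and 48.4 CPM in tumor-bearing blood, and to 45.4 and 48.0 CPM in naive spleen and naive blood. Only 4 spleen and 3 blood cells carried 20 or more of these UMIs. Leaving those cells out, an alternative added after the data were seen, gave log2 ratios of 3.73 for Vcam1, 1.11 for Slc40a1 and 0.65 for C1qa, and the calls of Vcam1, then under 20 CPM, and C1qa ended. Among these markers Timd4 and Marco were near 0, at 0.695 and 0.522 CPM in spleen and 0.442 and 0 CPM in blood. Spic and Cd5l, both under the minimum of 20 CPM, had 84 UMIs in 51 cells and 32 in 22 cells of tumor-bearing spleen. In tumor-bearing blood they had 24 UMIs in 15 cells and 1 UMI in 1 cell.

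Tnfaip3 was higher in spleen in the tumor-bearing and the naive pair, and its UMIs were spread over cells. It encodes A20, a brake on NF-kB signalling, and had 23.8 CPM in tumor-bearing spleen and 9.73 CPM in tumor-bearing blood (2.45-fold, 1.73 to 3.52). The naive tissues had 21.5 CPM in spleen and 10.1 CPM in blood (2.12-fold, 1.58 to 2.84). Its log2 ratio was above 1 in clusters 0, 1, 2 and 4 and 0.55 in cluster 6, and no cell of either tumor-bearing library held more than 4 of its UMIs. Among the 130 spleen and 175 blood cells with fewer than 3 UMIs of other cell types, its log2 ratio was 0.63 and the call ended. Over all 19 measured NF-kB feedback and survival genes, Tnfaip3 included, the median was 0.17. Of them 2 were at least 1.5-fold higher (3.14% of all measured genes were) and 1 at least 1.5-fold lower (1.07% of all). The NF-kB inhibitor Nfkbia had 313 CPM in spleen and 258 CPM in blood.

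Cxcr4, the receptor for the chemokine CXCL12, known for retaining leukocytes in bone marrow, had 122.6 CPM in tumor-bearing spleen and 69.6 CPM in tumor-bearing blood (1.76-fold, 1.54 to 2.02). The naive pair gave nearly the same values, 127 CPM in spleen and 71.5 CPM in blood. All 5 clusters were above 0, from 0.51 in cluster 2 to 1.30 in cluster 1. It was the 1 member of 10 measured chemokine and egress receptor genes past 1.5-fold upward (3.14% of all measured genes were). Ccr1 was the 1 member past 1.5-fold downward (1.07% of all). Ccr2, which draws monocytes out of the marrow, had 715 CPM in spleen and 917 CPM in blood.

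**Figure D3:**
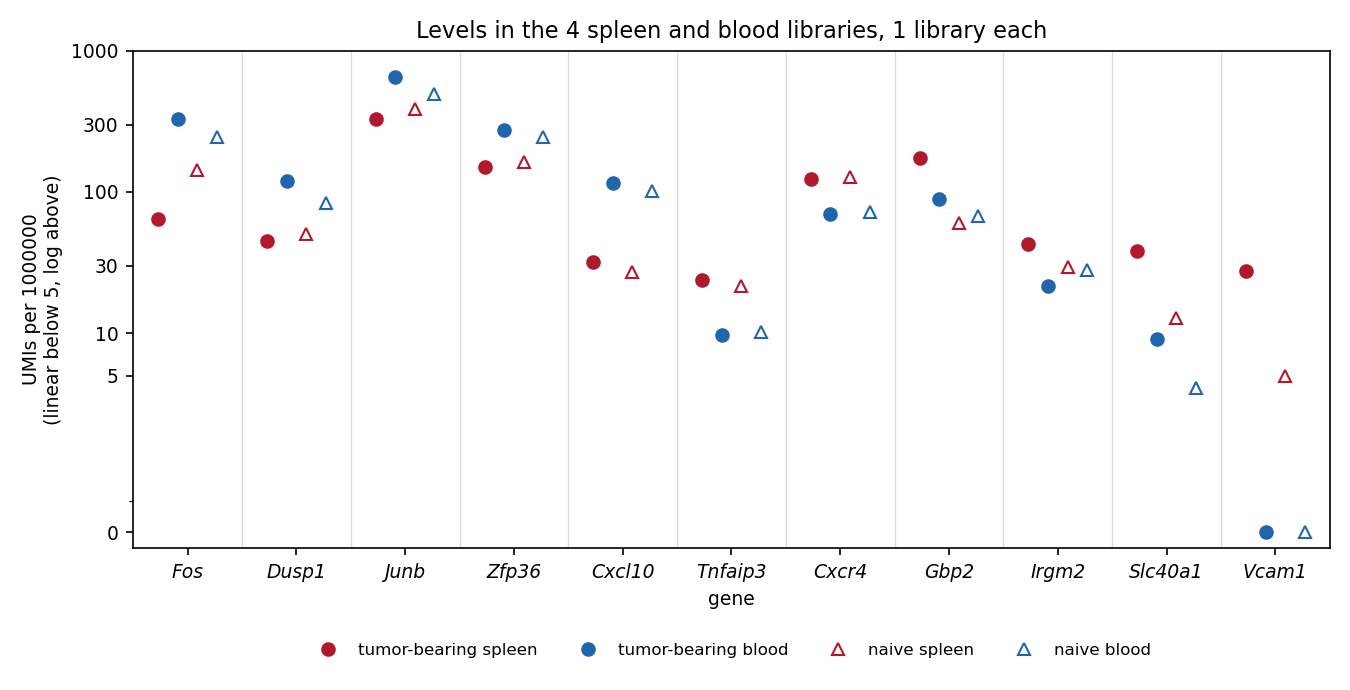
Levels of 11 genes (CPM, axis linear below 5 and logarithmic above) in tumor-bearing spleen, tumor-bearing blood, naive spleen and naive blood, left to right for each gene, 1 library each. Fos, Dusp1, Junb, Zfp36 and Cxcl10 are lower in spleen than in blood in each pair, and Tnfaip3, Cxcr4, Slc40a1 and Vcam1 are higher. Gbp2 and Irgm2 are highest in tumor-bearing spleen.

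GTPases that interferon-gamma induces for cell-autonomous defence were higher in tumor-bearing spleen over all cells, but not in every cluster. All 8 measured of 17 had a log2 ratio above 0, 4 were at least 1.5-fold higher (3.14% of all measured genes were) and the median was 0.48. By cluster the median was 0.34 in cluster 0, 0.14 in cluster 1, 0.40 in cluster 2, 0.56 in cluster 4 and -0.29 in cluster 6, with 4 of the 8 below 0 in cluster 1 and 6 of the 8 in cluster 6. Gbp2 had 175 CPM in tumor-bearing spleen and 89.5 CPM in tumor-bearing blood (1.95-fold, 1.74 to 2.20), and 60.4 and 67.5 CPM in naive spleen and naive blood. Most of its RNA sat in cluster 2, at 568 CPM in spleen and 283 CPM in blood. Irgm2 had 42.8 CPM in tumor-bearing spleen and 21.7 CPM in tumor-bearing blood, and 29.2 and 28.1 CPM in the naive tissues. Gbp5 and Gbp7, further guanylate-binding proteins, had 29.4 and 54.6 CPM in spleen, against 16.6 and 36.3 CPM in blood. The naive pair had a list median of -0.23, with 5 of 7 measured members below 0. Whether the 2 pairs differ cannot be tested with 1 library each. Ciita, the master regulator of MHC class II genes, which interferon-gamma also induces, had 40.7 CPM in tumor-bearing spleen and 19.9 CPM in tumor-bearing blood (2.04-fold, 1.60 to 2.64). That call ended without the 1 cell holding most Ciita UMIs and with an equal mix of clusters. It also ended without cells holding 3 or more UMIs of other cell types, where the log2 ratio of Ciita was 0.50. None of the other 8 measured MHC class II genes passed 1.5-fold.

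Type I interferon response genes split evenly in the tumor-bearing pair. Of 34 measured, 17 were above 0 and 17 below, none passed 1.5-fold in either direction, and the median was 0.00. Ifit1, an antiviral RNA-binding protein, had 35.5 CPM in tumor-bearing spleen and 52.8 CPM in tumor-bearing blood, and the ubiquitin-like modifier Isg15 had 244 and 241 CPM. In the naive pair 34 of 37 were below 0 and 11 were at least 1.5-fold lower in spleen (0.801% of all genes measured there were), with a median of -0.29. Cluster 16 took 0.864% of tumor-bearing spleen cells (0.281 to 2.0, exact Clopper-Pearson 95%) and 1.41% of tumor-bearing blood cells (0.460 to 3.27), and 1.92% and 4.30% in naive spleen and naive blood. Its part in these list values was not tested.

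Several lists, metabolic and lysosomal ones among them, leaned lower in tumor-bearing spleen without large folds. Of all 5421 measured genes 2549 had a log2 ratio below 0. Phagocytic and lysosomal genes had 19 of 22 measured members below 0 and a median of -0.18. Ctsc, a protease that activates granule enzymes, was the only one past 1.5-fold, at 428 CPM in spleen and 758 CPM in blood. Of all measured genes 1.07% were at least 1.5-fold lower. Hypoxia and glycolysis genes had 12 of 14 below 0 and a median of -0.31, led by the glucose transporter Slc2a1 at 16.9 CPM in spleen and 29.8 CPM in blood. Ldha, the last step of anaerobic glycolysis, had 227 CPM in spleen and 303 CPM in blood. Cholesterol synthesis genes had 7 of 10 below 0 and a median of -0.32, with the sterol demethylase Cyp51 at 19.99 CPM in spleen and 33.6 CPM in blood. In the naive pair these 3 medians were -0.08, -0.11 and -0.36. The lean was not particular to these lists. In the tumor-bearing pair cytoskeleton and migration genes had 19 of 24 below 0 and a median of -0.13. Endoplasmic reticulum stress genes had 8 of 12 below 0 and a median of -0.15.

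Markers of other cell types differed in where their RNA lay. Igkc, the kappa light chain of B and plasma cells, had 102 CPM in tumor-bearing spleen and 54.6 CPM in tumor-bearing blood over all cells. In clusters 0, 1, 2 and 4 it stood at 92.5 to 110 CPM in spleen and 4.42 to 13.3 CPM in blood, and in cluster 6 at 90.1 CPM in spleen and 393 CPM in blood. Spleen thus had a like level in these clusters, and blood a high level in 1. One blood cell held 123 of the 247 Igkc UMIs there. Without that cell the ratio over all cells was 3.71-fold, against 1.86-fold with it. Camp, an antimicrobial granule peptide of immature neutrophils, had 12.5 to 32.4 CPM in the 5 spleen clusters and 0 to 0.781 CPM in the blood ones. Ngp, a second granule gene, had 21.3 to 42.7 CPM in the spleen clusters and 0 to 1.33 CPM in the blood clusters. Over all cells Camp had 27.3 CPM in spleen and 11.5 CPM in blood, where 50 of 52 UMIs lay in 1 cell. The 15 B cell markers summed to 379 CPM in spleen and 334 CPM in blood, the 17 T and NK cell markers to 18.1 and 8.62 CPM, and the 12 neutrophil markers to 4757 and 3887 CPM. No measure of free RNA was made, and its part in these values was not tested.

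The remaining genes past 2-fold upward were low in both tissues. Cd209a, a lectin found on dendritic cells that arise from monocytes, had 28.0 CPM in tumor-bearing spleen and 11.5 CPM in tumor-bearing blood, with 37 of 161 spleen UMIs in 1 cell, and 36.6 and 34.7 CPM in naive spleen and naive blood. Its spleen and blood levels were close to each other in cluster 6, where it was highest, at 93.9 CPM in spleen and 77.5 CPM in blood. Slamf7, a self-binding receptor of leukocytes, had 28.2 CPM in spleen and 13.7 CPM in blood and was at least 1.5-fold higher in the naive pair too. Gigyf1, a regulator of translation, had 42.9 CPM in spleen and 21.0 CPM in blood, Otud4, a deubiquitinase, 24.7 and 11.9 CPM, and Stard8 28.9 and 14.4 CPM. These 3 genes stood at the edge of the threshold, with folds of 2.04, 2.07 and 2.01.

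Within single clusters more genes passed 2-fold, on fewer UMIs. Cluster 0 had 143 higher (2.6% of its measured genes) and 37 lower (0.672%), cluster 1 had 109 (1.98%) and 38 (0.69%), and cluster 2 had 154 (2.77%) and 60 (1.08%). Cluster 4 had 58 (1.1%) and 63 (1.2%), and cluster 6 had 161 (3.24%) and 67 (1.35%). In at least 3 of the 5 clusters 11 genes were higher (0.205%) and 6 lower (0.112%). The higher ones were Mir6236, Tnfaip3, Gigyf1, Stard8, Etv3, Gm608, Lrrk2, Spn, Marcksl1, Igkc and Ngp. Spn, the sialomucin CD43 of non-classical monocytes, was at least 2-fold higher in clusters 0, 2 and 6 but had 151 CPM in spleen and 119 CPM in blood over all cells. The lower ones included Fos, Dusp1, Jun, Socs3 and Ly6a.

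The most abundant gene past 2-fold upward was the microRNA gene entry Mir6236, at 142 CPM in tumor-bearing spleen and 47.1 CPM in tumor-bearing blood (3.02-fold, 2.59 to 3.53), with 87.7 and 60.9 CPM in naive spleen and naive blood. Counts from 3′ libraries do not measure the mature microRNA. Rn45s, the entry for the ribosomal RNA precursor, ran beside it at 4440 CPM in spleen and 2232 CPM in blood, and 3527 and 2501 CPM in the naive tissues. Its log2 ratio was above 0 in all 5 clusters, from 0.85 to 1.36. The nuclear RNA Malat1 had 10721 CPM in tumor-bearing spleen and 9406 CPM in tumor-bearing blood. The summed level of mitochondrially encoded genes was 30782 CPM in spleen and 28975 CPM in blood. The part of RNA quality in the higher genes was not tested.

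Across the 5228 genes measured in both pairs, the tumor-bearing and the naive log2 ratios had a Pearson r of 0.57 and a Spearman rank correlation of 0.55, given as a description, since the genes share libraries and depth. At 1.5-fold 20 genes were higher in spleen in each pair, which is 11.8% of the 170 tumor-bearing and 27.4% of the 73 naive ones. Another 15 were lower in each, 25.9% of the 58 and 34.9% of the 43. Among them Tnfaip3 was the 1 gene at least 2-fold higher in each pair and Cxcl10 the 1 gene at least 2-fold lower. Beside Fos and Dusp1, the shared lower genes included Zfp36, Ier2 and Atf3 of the immediate early list, Bcl2, Socs3 and Ccr1. The shared higher genes included Cxcr4, Hspa1b and Sod1, the cytosolic superoxide dismutase, at 96.0 CPM in tumor-bearing spleen and 63.2 CPM in tumor-bearing blood. Lrg1, a secreted acute-phase protein, was the 1 gene past 1.5-fold in opposite directions. It had 33.9 CPM in tumor-bearing spleen and 51.1 CPM in tumor-bearing blood, and 23.5 CPM in naive spleen and 6.96 CPM in naive blood.

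**Figure D4:**
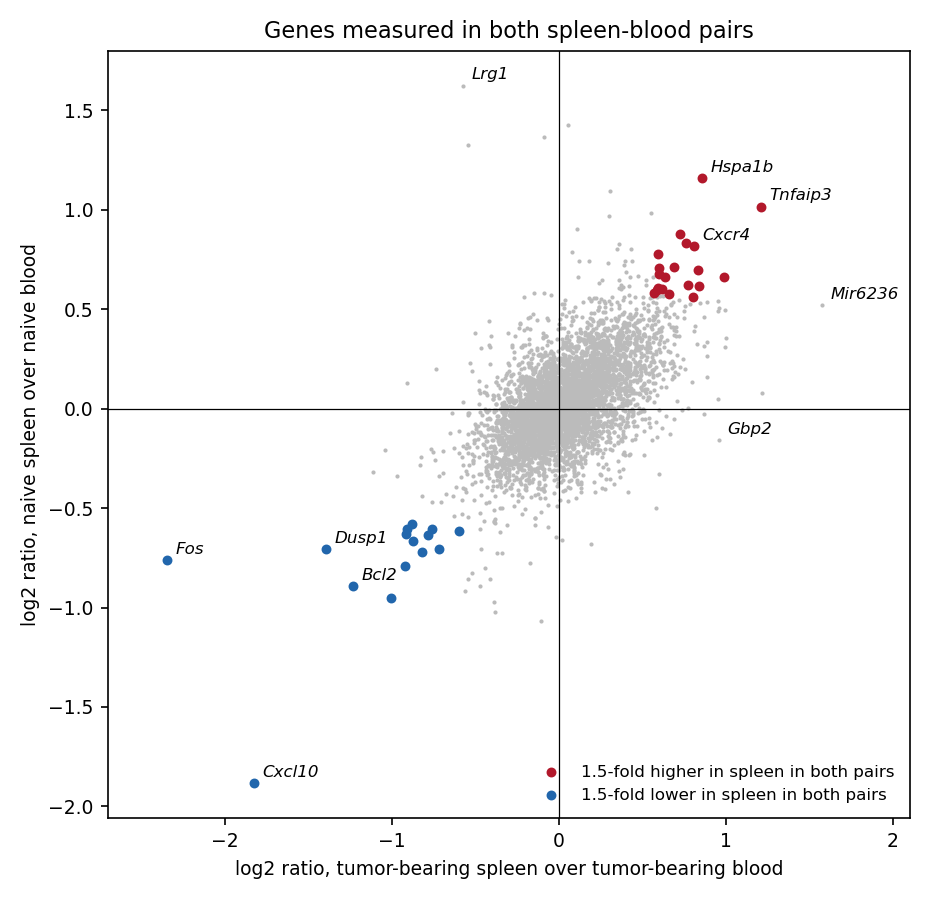
Each point is 1 of 5228 genes measured in both pairs, with the log2 ratio of tumor-bearing spleen over tumor-bearing blood on the x axis and that of naive spleen over naive blood on the y axis. Red points are the 20 genes at least 1.5-fold higher in spleen in each pair and blue points the 15 at least 1.5-fold lower. Fos and Cxcl10 lie lowest on the x axis, and Lrg1 has opposite signs.

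On the cell surface 47 antibodies were read, each as its share of all antibody counts of a library. One was at least 2-fold lower in tumor-bearing spleen (2.13% of 47) and none was at least 2-fold higher (0%), and 2 were at least 1.5-fold higher (4.26%). The lower one was CD11b, the handle of the enrichment, at 106 per 1000 antibody counts in tumor-bearing spleen and 251 in tumor-bearing blood (0.42-fold). The naive libraries had 76.2 in spleen and 199 in blood (0.38-fold), and the clusters lay between 0.40-fold and 0.45-fold. Its RNA Itgam had 293 CPM in spleen and 267 CPM in blood. The other 46 antibodies had a median of 1.33-fold, and 43 of them were above 1. Scaled to the counts without CD11b, an alternative added after the data were seen, their median was 1.12-fold.

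Sca-1, read by the antibody Ly-6A-E(Sca-1), had 14.5 per 1000 in tumor-bearing spleen and 7.66 in tumor-bearing blood (1.89-fold), and 10.3 and 7.12 in naive spleen and naive blood. Its RNA Ly6a had the opposite order to this share, 30.9 CPM in spleen and 68.3 CPM in blood. Counts of the antibody per cell had the order of the RNA, with means of 26.3 in tumor-bearing spleen and 51.8 in tumor-bearing blood. CD196(CCR6) followed at 3.59 per 1000 in spleen and 2.35 in blood, with its RNA Ccr6 at 0.348 and 0.442 CPM. After CD11b the lowest ratios were those of the Fc receptor CD16.2 at 0.80, the adhesion receptor CD97 at 0.83 and CD115(CSF-1R), the receptor for the monocyte growth factor CSF-1, at 0.85. CD115(CSF-1R) had 65.9 per 1000 in tumor-bearing spleen and 77.1 in tumor-bearing blood, and 48.2 and 90.6 in naive spleen and naive blood. Ly-6C, the classical monocyte antigen, took the largest share of any antibody in spleen, 293 per 1000, and 248 in blood, where CD11b was just above it.

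The antibody depth was unequal in the tumor-bearing pair. Median antibody counts per cell were 1649 in tumor-bearing spleen and 6045 in tumor-bearing blood, and 2302 and 2350.5 in naive spleen and naive blood. Per cell, 46 of the 47 antibodies were at least 2-fold lower in tumor-bearing spleen, between 0.113-fold and 0.409-fold, and Ly-6A-E(Sca-1) stood at 0.507-fold. The difference in depth cannot be told apart from a difference in staining or in surface protein.

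**Figure D5:**
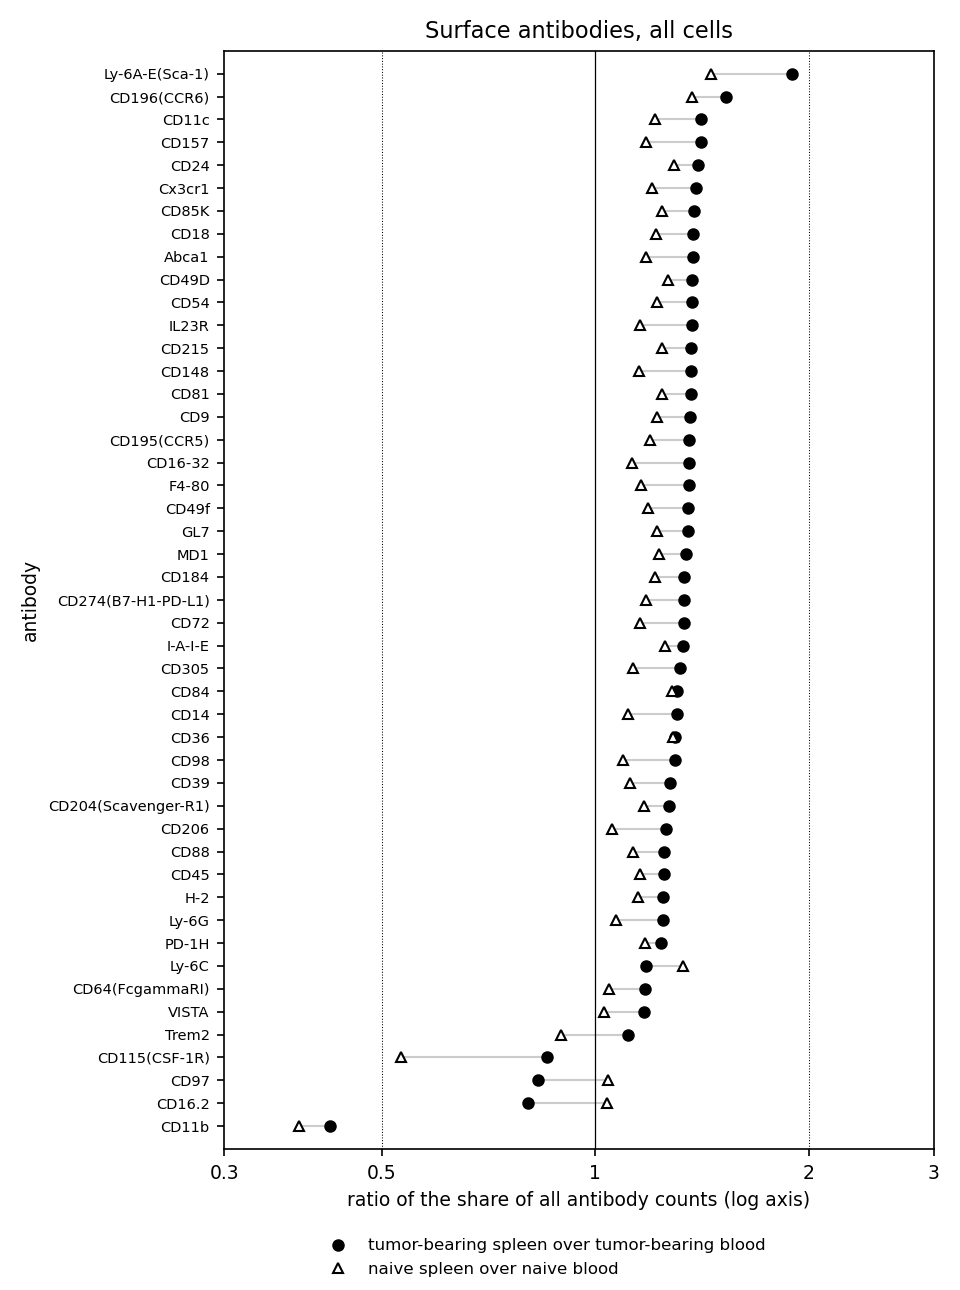
Rows are the 47 antibodies, ordered by the ratio of their share of all antibody counts in tumor-bearing spleen over tumor-bearing blood (filled circles), with naive spleen over naive blood as open triangles, on a log axis. CD11b is the lowest in each pair, at 0.42-fold and 0.38-fold, and Ly-6A-E(Sca-1) the highest.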

How the data were processed

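Per the labels' protocols, single cells were loaded on a 10x Chromium instrument and RNA and antibody-derived-tag libraries were made with 3′ chemistry. The submitters' processing notes name Cell Ranger and mm10, with no version, annotation or cell filter. The authors deposited raw UMI counts for 25127 genes and counts for 47 antibodies, and metadata listing 4527 cells with their library, cluster and, as a fraction, mitochondrial share. The 237 cells without counts, 28 of tumor-bearing spleen and 19 of tumor-bearing blood, were not used. No doublet caller was run, and leaving out the 2% deepest cells was the alternative.

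For each library the cells' counts were added up and expressed per 1000000 UMIs (CPM), with Python 3.11.15, numpy 2.4.6, scipy 1.17.1 and pandas 2.3.3. Cells are not replicates, so no test was run. Folds carry exact 95% conditional binomial intervals, which cover counting error only. Log2 ratios have a pseudo-count of 1 CPM. The procedure was tested on simulated data. Named genes were, among those past 2-fold that stayed past it without their top cell, up to 15 in each direction (7 higher and 6 lower existed), and up to 4 measured members with the largest ratio in each of 47 lists. The ranking left out genes of mitochondria, ribosomal proteins, haemoglobin and immunoglobulins, Xist, Tsix and Y-linked genes, and unnamed models. Other X-linked genes, such as Stard8, stayed in. Other named genes were chosen after their values were seen. The comparison, the gene lists and the genes shown were chosen with earlier results of these data known. Gene positions and promoters come from RefSeq on GRCm38.p6, which mm10 matches. Results for 1 gene that entered the counts are not reported here.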

Additional observations from a re-analysis of the deposited data

Results flagged for a closer look

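C1qa went opposite ways in the 2 pairs: its log2 ratio was 2.23 for tumor-bearing spleen over tumor-bearing blood and -1.27 for naive spleen over naive blood. The sister chains C1qb and C1qc did so too, at 0.30 and 0.96 in the tumor-bearing pair and -1.48 and -0.94 in the naive pair. These chains were all under 20 CPM in both naive libraries, and C1qc in the tumor-bearing ones too. The difference between the pairs was not tested, as each group is 1 library. In tumor-bearing spleen 73 of the 141 UMIs of C1qa lay in 1 cell.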

How the results depend on the processing

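The counts of 12 genes higher and 10 lower depended most on thresholds. They came to 170 and 58 at 1.5-fold, to 100 and 41 with a minimum of 5 CPM and to 1 and 4 with a minimum of 100 CPM. Thinning each cell to 5000 UMIs gave 38 and 19, and keeping only cells with fewer than 3 UMIs of other cell types gave 52 and 46 from 130 spleen and 175 blood cells. Under that last setting Camp and Slamf7 changed sign, to -0.23 and -0.55 on the log2 scale. The higher count alone moved to 20 when scaled without mitochondrial, ribosomal, haemoglobin and immunoglobulin genes, and to 21 over clusters 0, 1, 2, 4 and 6, while the lower count alone moved to 6 without each gene's top cell. The cause was not tested. Of the 22 genes, Fos, Dusp1, Jun and Mir6236 kept their call under all 10 settings that left the fold and the minimum as they were. For genes in at least 3 clusters, 11 higher and 6 lower, requiring 4 clusters gave 3 and 3, 1.5-fold gave 186 and 56, and leaving out top cells gave 3 lower. For antibodies, counts per cell gave 46 lower and 1.5-fold gave 2 higher. Of 1407 recomputed values 1265 stayed close, 140 moved and 2 reversed. No paired analysis was possible because each group has 1 library. Depth limits genes under 20 CPM, where 3 UMIs are 0.522 CPM in tumor-bearing spleen and 0.663 CPM in tumor-bearing blood.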

Other observations

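Long transcripts stood higher in spleen. The 164 of 170 genes at least 1.5-fold higher in tumor-bearing spleen that had a length in the GENCODE annotation had a median longest transcript of 5.44 kb (quartiles 4.11 and 7.22), and 57 of the 58 lower ones 2.70 kb (1.61 and 3.36). All measured genes had a median of 3.23 kb. Over 5 bins of like size from short to long transcripts (1045 to 1048 genes each), the median log2 ratio of tumor-bearing spleen over tumor-bearing blood was -0.04, -0.09, -0.02, 0.09 and 0.23. The naive pair gave -0.02, -0.03, -0.01, 0.04 and 0.13. In the longest bin the medians of clusters 0, 1, 2, 4 and 6 were 0.30, 0.22, 0.25, 0.10 and 0.29. The part of this pattern in the counts of higher and lower genes was not tested.

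Genes of mature neutrophils had a median log2 ratio of 0.11 in the tumor-bearing pair, where none of 14 was at least 1.5-fold higher, and of 0.74 in the naive pair, where 7 of 12 were (1.36% of all genes measured there were). The alarmin S100a8 had 2075 CPM in tumor-bearing spleen and 1685 CPM in tumor-bearing blood, and 1098 and 561 CPM in naive spleen and naive blood. Cluster 12 took 3.97% of tumor-bearing spleen cells and 4.80% of tumor-bearing blood cells, and 3.85% and 1.35% in naive spleen and naive blood. Its part in these values was not tested.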
